A study of Mus musculus with 2 samples.

Results

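The 9 genes described here are 5 guanylate-binding protein genes (Gbp2, Gbp3, Gbp4, Gbp5 and Gbp7), 3 immunity-related GTPase genes (Igtp, Irgm1 and Iigp1) and Irf1. They were taken by symbol from the 32285 genes of the deposited count files, and all 9 were found. Irf1 encodes a transcription factor, not a GTPase, and is the regulator in the set. Spleen cells of wild-type C57BL/6 mice were measured by 5' droplet single-cell RNA sequencing in 2 libraries, 1 per group. The ALLO library came from a wild-type recipient mouse or mice grafted at weeks 0 and 5 with tail skin of C57BL/6-Tg(HLAA2.1)1Enge/J donors, whose cells carry HLA-A2 of human origin. For the SYN library the skin was from wild-type C57BL/6 donors and the grafting was otherwise alike. Spleens were taken 4 weeks after the second graft, and the cells were frozen, thawed and depleted of dead cells on a magnetic column. Age and the number of mice behind each library were not given in the sources used here. With 1 library per group there is no replicate and no test: every difference below is one between these libraries, and the 95% intervals cover counting error only.

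Interferon gamma binds its receptor on a cell and signals through the kinases Jak1 and Jak2 to genes with GAS elements in their promoters. Irf1 is one of the first genes switched on in this way, and its protein binds ISRE-type elements in later genes, the GTPase genes among them. In mouse cells the guanylate-binding proteins coat membranes around intracellular bacteria and parasites, and the immunity-related GTPases act at the same vacuoles: Iigp1 is an effector that loads onto the vacuole, while Irgm1 and Igtp (also called Irgm3) protect the cell's own membranes from such effectors. Type I interferons induce many of the same genes through ISRE elements.

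The files held 11185 ALLO and 17777 SYN barcodes with 39476214 and 45435231 UMIs (unique molecular identifiers, each standing for 1 captured RNA molecule). After the filters 9791 ALLO and 11197 SYN barcodes were left. B cells (Cd79a or Cd79b UMIs, no Cd3 UMI) made up 6941 ALLO and 6802 SYN barcodes, CD4 T cells 573 and 868, CD8 T cells 558 and 554, and NK cells 212 and 337. No class rule was met by 1564 ALLO and 2744 SYN barcodes. The classes carried their defining markers, with Ms4a1 in B cells and Trbc2 in T cells. The classes overlapped in 1 place: 57 ALLO and 108 SYN barcodes met both the NK and the B cell rule and were counted in both, so that NK over B ratios share them. The NK class was mixed: 80 ALLO and 121 SYN NK barcodes also held a Cd79a or Cd79b UMI, so the NK levels and the ratios of note are given with and without them. Both libraries listed 264 barcodes in common. Levels are UMIs of a gene scaled to 1000000 UMIs of the class (CPM). RNA left free in the droplets was visible at low levels in the classed barcodes. Ms4a1 stood in T cells at 0.726 to 1.33% of its B cell level. Cd4, Cd8b1 and Trbc2 stood in B cells at 0.136 to 1.08% of their T cell level. The class rules drop T cell barcodes with a Cd79a UMI and B cell barcodes with a Cd3 UMI, so these shares may understate free RNA.

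Gbp2, Gbp3, Gbp5 and Gbp7 lie on the plus strand of chromosome 3 within 144 kb (mm10, GENCODE M21, chr3:142493978-142638008). Gbp4 lies on the minus strand of chromosome 5 (chr5:105115767-105139586), where its annotated span overlaps those of Gbp8 and Gbp9. Igtp (chr11:58199556-58207591), Irgm1 (chr11:48861968-48871683) and Irf1 (chr11:53770014-53778374) are on chromosome 11. The span of Igtp overlaps that of Irgm2 on the same strand. Counts of Gbp4 and Igtp are therefore uncertain to the extent that the authors' counting split reads among these neighbours and near-identical copies.

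Promoters from RefSeq (GRCm38.p6, 250 bases before to 50 after the annotated start) were at hand for 7 of the 9 genes, Gbp4 and Iigp1 being the others. They were searched on both strands for GAS (TTCNNNGAA) and for the ISRE core (GAAA, any 2 bases, GAAA). Of all 32851 promoters in the table, 8.3% held GAS, 3.44% the ISRE core and 0.454% both. Counted by gene, GAS was present in 4 of the 7 (Gbp5, Gbp7, Igtp and Irf1) against 9.55% of all genes, the ISRE core in 6 of the 7 (all but Irf1) against 3.99%, and both in 3 of the 7 (Gbp5, Gbp7 and Igtp) against 0.54%. Irf1, the first-wave gene, thus had GAS alone, and Gbp2, Gbp3 and Irgm1 had the ISRE core alone. Irf1 and Gbp3 each had a second RefSeq promoter, which is not printed and in which the 120 bases before the start held no match. A match is a stretch of letters and not a shown binding site. The 120 bases before the RefSeq start are printed for 3 genes because they show GAS alone, GAS apart from the ISRE core and GAS next to it; capitals mark the matches, and each is read 5′ to 3′ on the strand of the gene.
Irf1 (chr11:53769894-53770013, plus strand, GAS alone): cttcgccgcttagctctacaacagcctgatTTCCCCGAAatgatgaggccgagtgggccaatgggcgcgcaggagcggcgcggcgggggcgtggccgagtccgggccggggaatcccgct
Gbp7 (chr3:142530216-142530335, plus strand, 2 GAS and then an ISRE core on the other strand): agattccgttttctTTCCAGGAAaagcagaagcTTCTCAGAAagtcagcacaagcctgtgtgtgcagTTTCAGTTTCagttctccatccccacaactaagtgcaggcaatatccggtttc
Igtp (chr11:58199436-58199555, plus strand, GAS and ISRE core together): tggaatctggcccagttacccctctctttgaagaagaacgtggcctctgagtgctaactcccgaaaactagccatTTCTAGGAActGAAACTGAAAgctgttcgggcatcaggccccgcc

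In Igtp the GAS match ended 2 bases before an ISRE core on the same strand. The same arrangement was present at 3 related genes of chromosome 11, Irgm2, Tgtp1 and Tgtp2, which encode further immunity-related GTPases. Over the whole table it was found in 5 of 32851 promoters (0.0152%), the fifth being that of Gm12185, also on chromosome 11. This arrangement was picked after the matches had been seen. The 30-base stretches around it are printed so that they can be compared, with the matches in capitals.
Igtp (chr11:58199507-58199536, plus strand): ccatTTCTAGGAActGAAACTGAAAgctgt
Irgm2 (chr11:58214898-58214927, plus strand): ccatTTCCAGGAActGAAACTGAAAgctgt
Tgtp1 (chr11:48992309-48992338, minus strand): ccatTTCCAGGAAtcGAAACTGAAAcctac
Tgtp2 (chr11:49064268-49064297, minus strand): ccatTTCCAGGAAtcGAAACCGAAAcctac

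The members with the ISRE core alone had it close to the start, and in Gbp3 and Irgm1 it came as 2 overlapping matches. These 30-base stretches show them, again with the matches in capitals.
Gbp2 (chr3:142620594-142620623, plus strand): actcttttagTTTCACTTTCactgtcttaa
Gbp3 (chr3:142559992-142560021, plus strand): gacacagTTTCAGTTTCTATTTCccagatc
Irgm1 (chr11:48871428-48871457, minus strand): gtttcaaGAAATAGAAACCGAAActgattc

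**Figure D1:**
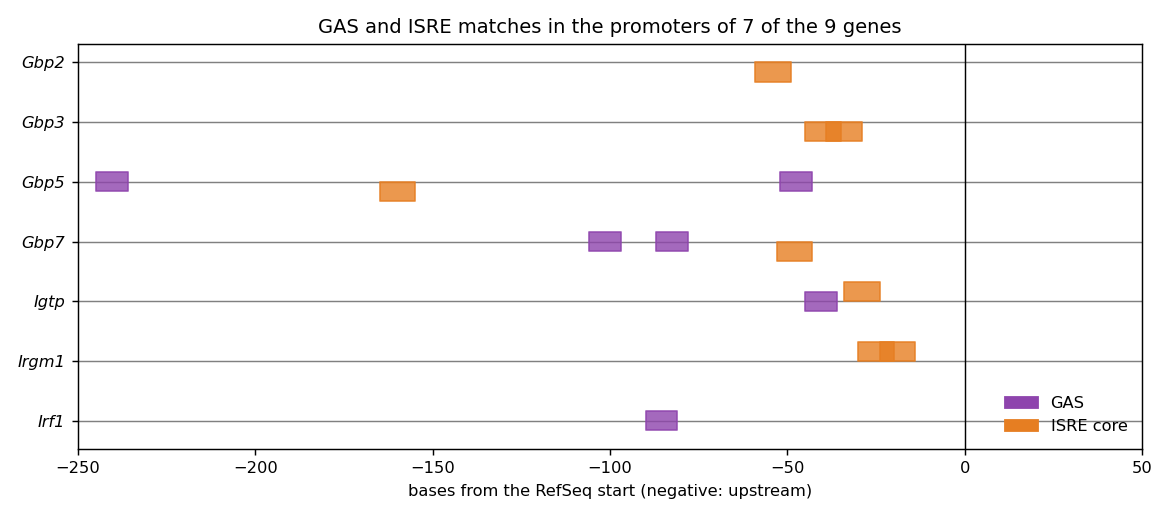
Matches to GAS (purple) and to the ISRE core (orange) along 1 promoter each of the 7 genes found in RefSeq; the x axis gives bases from the RefSeq start, and boxes above, on or below a line are matches on the gene's strand, on both strands or on the other strand. Every match except the GAS at -245 and the ISRE core at -165 of Gbp5 lies between -106 and -15.

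The 9 genes differed in the lymphocyte classes they marked, and most of these patterns were alike in both libraries. Of the 4 classes, Iigp1 was near 0 outside T cells and was highest in CD4 T cells, Gbp7 was highest in NK cells, Igtp and Gbp2 were higher in T cells than in B cells, and Gbp3 and Gbp5 were lower in T cells than in B cells. Irgm1 and Irf1 were spread most evenly. At least 1.5-fold above B cells in the ALLO library stood 5 of 9 members in CD4 T cells (19.7% of all genes), 4 of 8 in CD8 T cells (14.2%) and 2 of 8 in NK cells (22.8%). In the SYN library these counts were 6 of 9 (16.2%), 6 of 9 (14.3%) and 4 of 8 (20.5%). At least 1.5-fold below B cells stood 0 of 9, 1 of 8 and 0 of 8 in the ALLO library (22.2%, 30.1% and 21% of all genes), and 2 of 9, 2 of 9 and 0 of 8 in the SYN library (25%, 30.1% and 20.1%). With NK barcodes that held a Cd79a or Cd79b UMI left out, 2 of 8 members in ALLO (28.8%) and 4 of 8 in SYN (25%) were at least 1.5-fold above B cells, and 0 of 8 below in either (28.4 and 27.1%). The denominators are members with at least 20 UMIs over the pair of classes, and that minimum favours a gene that is high in 1 of them.

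Gbp2, which is recruited to parasite vacuoles in mouse cells, was at 39.6 CPM in CD4 T, 28.5 in CD8 T, 16.0 in NK and 11.5 in B cells of the ALLO library. In the SYN library it was at 35.1 CPM in CD4 T, 37.7 in CD8 T, 25.5 in NK and 14.4 in B cells. The T cell levels were thus 2.44 to 3.46 times the B cell level in both libraries, and NK cells lay between. CD4 T cells were above CD8 T cells in ALLO (1.39, 1.03 to 1.88) and the T cell classes did not differ beyond counting error in SYN (CD8 over CD4 1.07, 0.821 to 1.40). Gbp3 ran the other way: it was at 16.5 CPM in CD4 T, 14.2 in CD8 T, 24.6 in NK and 24.3 in B cells of the ALLO library. In the SYN library it was at 6.36 CPM in CD4 T, 12.2 in CD8 T, 27.3 in NK and 31.2 in B cells. NK and B cells did not differ beyond counting error in either library, and both T cell classes were below B cells; the CD4 T cell level was 1.47-fold (1.08 to 2.05) below that of B cells in ALLO and 4.91-fold (3.25 to 7.79) below it in SYN.

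Gbp4 was at 63.9 CPM in CD4 T, 46.9 in CD8 T, 54.2 in NK and 28.1 in B cells of the ALLO library, and at 55.8, 57.8, 43.1 and 24.8 CPM in the same order in the SYN library. The 3 other classes were each above B cells. CD4 T cells were above CD8 T cells in ALLO (1.36, 1.08 to 1.72) and not beyond counting error in SYN (0.967, 0.782 to 1.20). Gbp5, which promotes assembly of the NLRP3 inflammasome in mouse macrophages, was at 20.01 CPM in CD4 T, 20.1 in CD8 T, 40.7 in NK and 29.2 in B cells of the ALLO library. In the SYN library it was at 15.2, 17.6, 24.6 and 28.4 CPM in that order. The T cell classes were the lowest in both libraries, while the order of NK and B cells changed between the libraries within their intervals.

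Gbp7 had the widest span among the guanylate-binding genes: it was at 89.9 CPM in NK, 55.8 in CD4 T, 45.1 in CD8 T and 15.7 in B cells of the ALLO library, and at 81.8, 54.2, 47.3 and 14.0 CPM in the same order in the SYN library. The NK cell level was 5.73 (4.40 to 7.36) times that of B cells in ALLO and 5.85 (4.59 to 7.38) times in SYN. It was also 1.61 (1.20 to 2.15) times that of CD4 T cells in ALLO and 1.51 (1.17 to 1.94) times in SYN, so that NK cells were first beyond counting error. Without the NK barcodes that held a Cd79a or Cd79b UMI, the NK level of Gbp7 was higher still, at 128 CPM in ALLO and 112 CPM in SYN, or 8.14 (5.97 to 10.9) and 7.98 (6.11 to 10.3) times the B cell level.

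Among the immunity-related GTPases, Igtp was at 77.7 CPM in CD4 T, 40.6 in CD8 T, 22.2 in NK and 21.3 in B cells of the ALLO library. In the SYN library it was at 57.5, 48.8, 22.0 and 17.8 CPM in that order. CD4 T cells had 1.91 (1.52 to 2.42) times the level of CD8 T cells in ALLO and 1.18 (0.945 to 1.47) times in SYN, where the difference was within counting error. CD8 T cells were above NK cells in both libraries, and NK and B cells did not differ beyond counting error. Irgm1 was at 48.1 CPM in CD4 T, 41.0 in CD8 T, 37.0 in NK and 36.1 in B cells of the ALLO library, and at 39.5, 38.0, 23.8 and 31.0 CPM in that order in the SYN library. The Irgm1 level of CD4 T cells was 1.33 (1.10 to 1.61) times that of B cells in ALLO and 1.27 (1.06 to 1.53) times in SYN, and SYN NK cells had 0.601 (0.383 to 0.912) times the CD4 T cell level.

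Iigp1 was at 18.1 CPM in CD4 T cells (47 UMIs in 29 of 573 barcodes) and 4.17 in CD8 T cells (12 UMIs) of the ALLO library. In the SYN library it was at 14.1 CPM in CD4 T cells (51 UMIs in 38 of 868 barcodes) and 5.02 in CD8 T cells (14 UMIs). It had 6 UMIs in all B cells of each library (0.233 CPM in ALLO, 0.259 in SYN), and 0 ALLO and 1 SYN UMI in NK cells. The CD4 T cell level was 4.34 (2.27 to 8.99) times that of CD8 T cells in ALLO and 2.81 (1.53 to 5.49) times in SYN, and it was 77.5 (33.1 to 222) and 54.4 (23.3 to 155) times that of B cells. The B cell level was 1.29% of the CD4 T cell level in ALLO and 1.84% in SYN, above the T cell lineage genes Cd4, Cd8b1 and Trbc2 in B cells of the same library (up to 0.497% in ALLO and 1.08% in SYN). With 6 UMIs a low B cell level and free RNA cannot be told apart. Iigp1 lies on chromosome 18. The 0 UMIs in 212 ALLO NK cells allow a share of NK cells with an Iigp1 UMI of up to 1.42%.

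Irf1 was at 172 CPM in CD4 T, 151 in CD8 T, 171 in NK and 139 in B cells of the ALLO library, and at 185, 176, 193 and 106 CPM in that order in the SYN library. B cells were last in both libraries. They were further behind in SYN, where CD8 T cells had 1.66 (1.504 to 1.83) times their level, against 1.09 (0.985 to 1.20) times in ALLO. CD4 T, CD8 T and NK cells did not differ from their neighbours in order beyond counting error.

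Without the NK barcodes that held a Cd79a or Cd79b UMI, the other NK levels were 9.83 CPM in ALLO and 31.7 in SYN for Gbp2, 22.1 and 27.2 for Gbp3, 73.7 and 54.4 for Gbp4, and 34.4 and 31.7 for Gbp5. Igtp was then at 19.7 CPM in ALLO and 25.7 in SYN NK cells, Irgm1 at 34.4 and 22.6, and Irf1 at 192 and 231, while Iigp1 had 0 UMIs in both. Igtp thus stayed low and Gbp7 high in NK cells, while Gbp2, with 4 ALLO UMIs left, was below its B cell level in ALLO and above it in SYN.

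**Figure D2:**
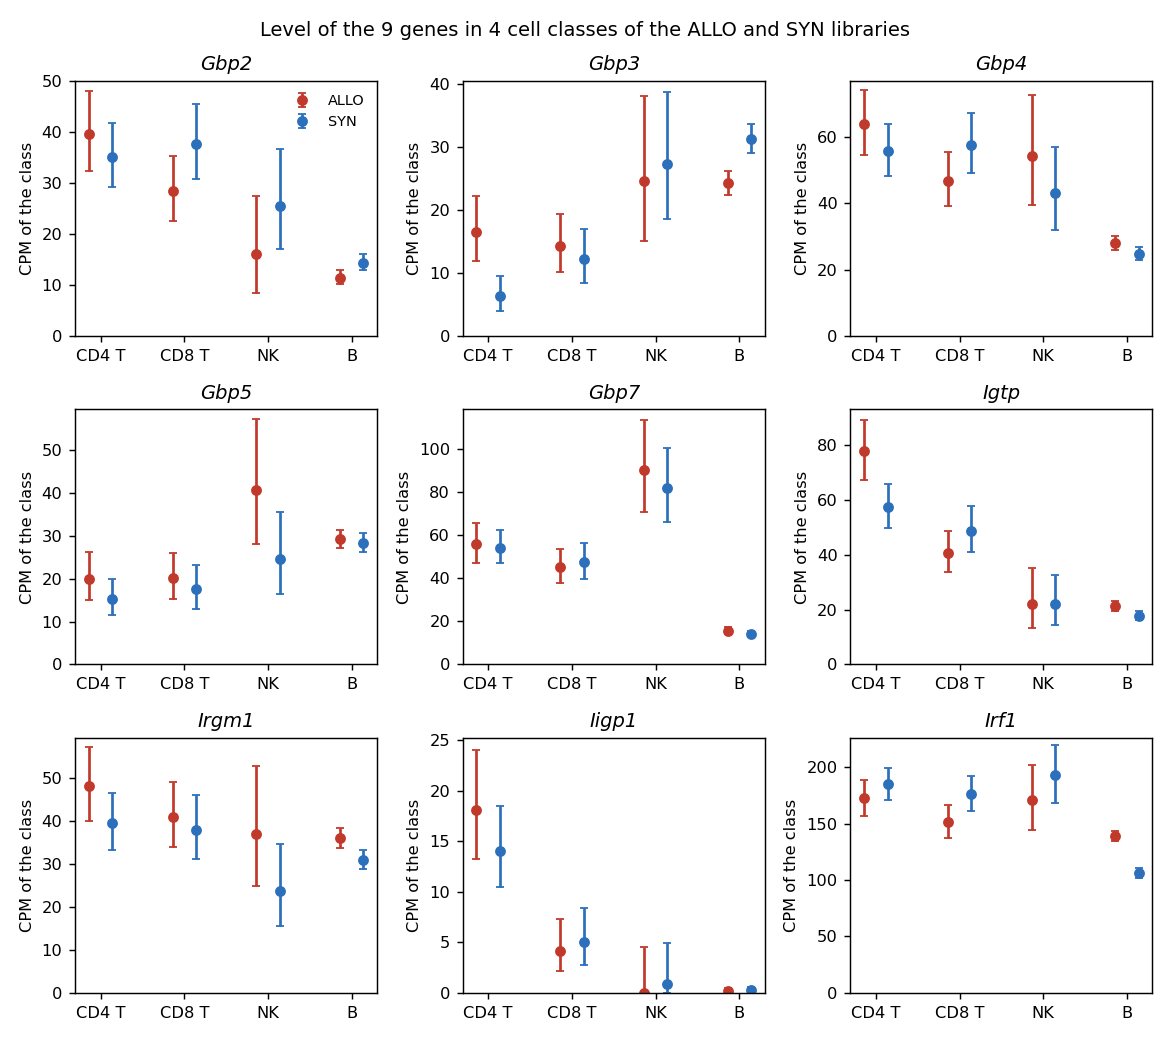
CPM of each of the 9 genes (y axis, 1 panel per gene, each from 0) in CD4 T, CD8 T, NK and B cells (x axis) of the ALLO library (red, left) and the SYN library (blue, right); points are summed UMIs over class totals and bars are exact Poisson intervals for counting error. Iigp1 is near 0 outside T cells, Gbp7 is highest in NK cells at 89.9 CPM in ALLO and 81.8 in SYN, and the Gbp3 points part in CD4 T cells at 16.5 and 6.36 CPM.

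Between the libraries, most members differed little within a class. In CD4 T cells the ALLO level of Gbp3 was 2.60 times the SYN level, and that of Igtp 1.35 times. In B cells the ALLO level of Irf1 was 1.31 times the SYN level, while Gbp2 and Gbp3 were lower. In CD8 T cells 6 of 9 members had lower values in ALLO, but the median log2 ratio of all genes was also negative, at -0.07. Irf1 was the single member there whose interval left out 1. In the NK class every member's interval held 1.

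B cells gave the narrowest intervals. Gbp2 had 11.5 CPM in ALLO B cells and 14.4 CPM in SYN B cells (ratio 0.797, 0.679 to 0.935), and Gbp3 24.3 and 31.2 CPM (0.777, 0.697 to 0.867). Igtp had 21.3 CPM in ALLO and 17.8 CPM in SYN (1.20, 1.05 to 1.37), Irgm1 36.1 and 31.0 CPM (1.16, 1.05 to 1.28), and Gbp4 28.1 and 24.8 CPM (1.13, 1.01 to 1.27; without interferon cells 1.12, 0.998 to 1.26). Irf1 had the highest ratio, with 139 CPM in ALLO and 106 CPM in SYN (1.31, 1.24 to 1.38). Gbp5 and Gbp7 had ratios of 1.03 and 1.12 with intervals that held 1. None of the 8 members with at least 20 UMIs was 1.5-fold apart in either direction, where 2.81% of all genes were at least 1.5-fold higher and 5.07% at least 1.5-fold lower in ALLO. Their median log2 ratio was 0.17, against -0.07 for all genes. Gbp2 and Gbp3 thus went one way in B cells, and Igtp, Irgm1, Gbp4 and Irf1 the other. The neutrophil marker S100a8 stood at 1.59 CPM in ALLO B cells and 221 CPM in SYN B cells, where 1 barcode gave 1234 of its 5115 UMIs; its part in these ratios was not tested.

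In CD4 T cells Gbp3 had 43 UMIs in 33 of 573 ALLO barcodes and 23 UMIs in 22 of 868 SYN barcodes, or 16.5 and 6.36 CPM (ratio 2.60, 1.53 to 4.52). It was the single member of 9 that was at least 1.5-fold higher in ALLO (8.43% of all genes), and 0 of 9 were at least 1.5-fold lower (4.28%). Igtp had 77.7 CPM in ALLO and 57.5 CPM in SYN (1.35, 1.11 to 1.65), and without the interferon cells described below a ratio of 1.23 (0.994 to 1.52), whose interval held 1. The other ratios lay between 0.932 for Irf1 and 1.32 for Gbp5, each with an interval that held 1; for Iigp1 it was 1.28 (0.844 to 1.95). The median log2 ratio was 0.28 over the members and 0.02 over all genes. The ALLO CD4 T cells also held more UMIs of the dividing-cell markers Mki67 and Top2a, 215 CPM in ALLO and 54.4 in SYN summed, and more of the summed NK markers, 248 and 79.0 CPM, with 107 of 223 ALLO Gzma UMIs in 1 barcode. Without barcodes that held at least 2 UMIs of Mki67 and Top2a, the Gbp3 log2 ratio was 1.28, against 1.38 with them.

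In CD8 T cells Irf1 was the single member whose interval left out 1, with 151 CPM in ALLO and 176 CPM in SYN (ratio 0.860, 0.754 to 0.97998). Gbp2 had the lowest ratio, with 28.5 and 37.7 CPM (0.756, 0.559 to 1.02). Of the 9 members 0 were at least 1.5-fold higher (4.52% of all genes) and 0 at least 1.5-fold lower (6.41%), and the median log2 ratio was -0.22 over the members and -0.07 over all genes. The lowest and highest of the remaining ratios were 0.812 for Gbp4 and 1.17 for Gbp3, with intervals that held 1.

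In NK cells Gbp5 had 40.7 CPM in ALLO and 24.6 CPM in SYN (1.65, 0.967 to 2.83), Irgm1 37.0 and 23.8 CPM (1.56, 0.894 to 2.72), and Gbp2 16.0 and 25.5 CPM (0.627, 0.299 to 1.246). These are the 2 members of 8 at least 1.5-fold higher (6.12% of all genes) and the 1 at least 1.5-fold lower (9.66%), and all 3 intervals held 1. Without NK barcodes that held a Cd79a or Cd79b UMI the Gbp5 ratio was 1.09 (0.510 to 2.24) and the Irgm1 ratio 1.52 (0.679 to 3.38). Gbp2 then had 4 ALLO and 21 SYN UMIs, a ratio of 0.310 (0.0774 to 0.919). The summed plasma cell markers in ALLO NK cells, 2060 CPM against 10.6 in SYN, came mostly from 1 barcode with 1459 of the 1671 Jchain UMIs; its part in these values was not tested.

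**Figure D3:**
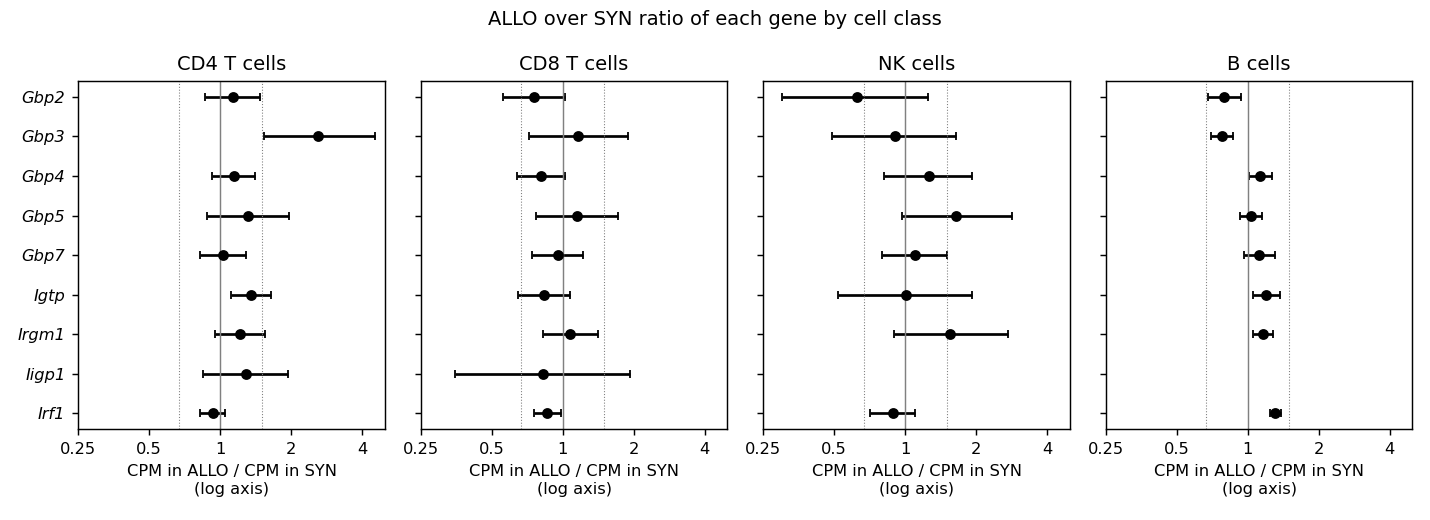
Ratio of CPM in ALLO over CPM in SYN (x axis, log scale) for each member (rows) in 4 cell classes (panels), with exact conditional intervals for counting error; the solid line is 1, dotted lines mark 1.5-fold, and members under 20 UMIs are left out. Gbp3 in CD4 T cells is the one point whose whole interval lies past 1.5-fold.

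Single cells held few UMIs of these genes, so the members were also counted per cell after each was thinned to 1000 UMIs. At least 1 Irf1 UMI was then present in 14.0% of ALLO and 17.3% of SYN CD4 T cells, 10.9% and 19.5% of CD8 T cells, 13.7% and 16.0% of NK cells, and 11.9% and 10.1% of B cells. Unthinned, the Irf1 shares were 44.5% of ALLO and 45.9% of SYN CD4 T cells, 47.1% of ALLO and 51.1% of SYN CD8 T cells, 41.5% of ALLO and 42.7% of SYN NK cells, and 31.5% of ALLO and 25.2% of SYN B cells. The order of the libraries in each class was that of the CPM. In CD8 T cells the thinned Irf1 shares lay further apart than the unthinned ones, and thinning was drawn with 1 seed. Gbp3 was present in 2.09% (1.09 to 3.63, exact Clopper-Pearson) of thinned ALLO CD4 T cells and 0.346% (0.0713 to 1.01) of SYN ones, and in 5.76% and 2.53% unthinned. The B cell gene Ms4a1, which CD4 T cells should lack, was present in 1.40% of thinned ALLO and 1.27% of SYN CD4 T cells, above the SYN share of Gbp3, so no difference is read from the thinned shares. In CPM the SYN CD4 T cells held Gbp3 at 20.4% of its B cell level, against 0.726% for Ms4a1. The Ms4a1 share was taken after barcodes with a Cd79a UMI had been dropped.

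In B and CD4 T cells, cells with a UMI of one member held another member more often than cells without it. Among members with at least 20 positive thinned cells this was so for 8 of 8 in B cells of each library and 6 of 6 in CD4 T cells of each, with intervals apart for 4 in ALLO and 1 in SYN B cells, and for 0 in ALLO and 2 in SYN CD4 T cells. It was so for 2 of 4 in ALLO and 5 of 6 in SYN CD8 T cells, and for 1 of 1 in ALLO and 0 of 3 in SYN NK cells, with no intervals apart. Igtp and Irgm1 serve as examples. In thinned B cells another member was present in 35.1% (27.0 to 43.8) of ALLO cells with an Igtp UMI, against 22.2% (21.2 to 23.2) of those without one, and in 31.0% (23.0 to 39.8) against 20.7% (19.8 to 21.7) of SYN cells. For Irgm1 the ALLO shares were 30.0% (24.2 to 36.2) and 21.03% (20.1 to 22.0), and the SYN shares 23.5% (17.7 to 30.0) and 19.9% (18.9 to 20.9), which meet in SYN. In CD4 T cells the Igtp shares were 41.9% and 32.1% in ALLO and 51.7% and 31.2% in SYN, with intervals that met in ALLO and not in SYN. Each pair of members enters these counts from both sides, and no like count was made over all genes. Whether the pattern is particular to the members was not tested. Cells of a class share their library, and these shares are a description. Most thinned cells held no UMI of any member: 62.8% of ALLO and 64.2% of SYN CD4 T cells, 71.1 and 63.5% of CD8 T cells, 69.3 and 62.9% of NK cells, and 76.3 and 77.8% of B cells.

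Cells with a type I interferon signature, taken as those with UMIs of at least 2 of 8 type I interferon-induced genes, were more common in ALLO: 35 CD4 T cells (6.11%) against 29 (3.34%) in SYN, 34 CD8 T cells (6.09%) against 22 (3.97%), and 185 B cells (2.67%) against 118 (1.73%). Within B cells, where they were most numerous, 5 of 8 members were at least 1.5-fold higher in interferon cells than in other cells in ALLO (9.88% of all genes) and 5 of 8 in SYN (12.9%), and 0 of 8 were lower in either (15.2% in ALLO, 18.1% in SYN). Igtp and Irgm1 had the highest ratios in ALLO, and Gbp7 in SYN. Igtp was at 70.3 CPM in interferon B cells and 19.5 in other B cells of ALLO (3.599, 2.72 to 4.69), and at 46.6 and 17.0 CPM in SYN (2.74, 1.78 to 4.04). Irgm1 was at 114 and 33.3 CPM in ALLO (3.42, 2.75 to 4.201) and at 88.0 and 29.6 CPM in SYN (2.98, 2.19 to 3.96). The pair that protects host membranes was thus higher in interferon B cells of both libraries, but this was not particular to the pair. Gbp4 was at 68.1 and 26.6 CPM in ALLO (2.56, 1.93 to 3.33) and at 65.5 and 23.8 CPM in SYN (2.76, 1.93 to 3.84). The ratio of Gbp2 was 1.48 (0.820 to 2.49) in ALLO and 2.89 (1.80 to 4.41) in SYN. Gbp7 was at 35.7 and 15.0 CPM in ALLO (2.38, 1.61 to 3.42) and at 43.1 and 13.3 CPM in SYN (3.25, 2.07 to 4.90). Irf1 differed less, at 151 and 138 CPM in ALLO (1.09, 0.909 to 1.29) and 131 and 105 CPM in SYN (1.24, 0.976 to 1.56).

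In CD4 T cells 6 of 9 members were at least 1.5-fold higher and 0 lower in interferon cells of ALLO (13.8 and 25.1% of all genes), and 2 of 9 were higher and 1 lower in SYN (18.1 and 24.9%). Iigp1 was at 60.5 CPM in interferon CD4 T cells and 14.9 in other CD4 T cells of ALLO (4.06, 1.87 to 8.16), and at 14.1 CPM in both in SYN, where the interferon cells held 2 UMIs of it. In CD8 T cells 4 of 8 were higher and 0 lower in ALLO (14.5 and 22.6%), and 4 of 8 higher and 2 lower in SYN (17 and 28.4%). The 5 ALLO and 7 SYN NK interferon cells gave 5 of 6 higher and 0 lower in ALLO (23.8 and 38.7%), and 2 of 8 higher and 3 lower in SYN (17.2 and 34.1%). Interferon cells were chosen by their UMIs and were deeper than the rest, with a median of 3839 against 3168 UMIs in ALLO B cells and 3560.5 against 2996 in SYN B cells. With all interferon cells left out, the ALLO over SYN log2 ratio of Irf1 in B cells was 0.39, the same as with them, and that of Gbp3 in CD4 T cells was 1.29, while the median of the members in CD4 T cells was 0.10 in place of 0.28.

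Other genes of the pathway were taken from 4 lists, of which Gbp11, Gm12250 and Mx1 were not analysed here; each count is to be read against the shares of all genes given for the class above. Of the other GTPases in B cells, 3 of 10 were at least 1.5-fold higher in ALLO and 1 of 10 lower, with a median log2 ratio of 0.29. Tgtp2, 1 of the genes with the paired promoter arrangement, had 11.2 CPM in ALLO and 6.22 CPM in SYN (1.80, 1.47 to 2.21), Gbp6 had 4.04 and 2.29 CPM (1.77, 1.26 to 2.51), and Gbp10 had 15 ALLO and 5 SYN UMIs. Gbp8 was 1.54-fold lower in ALLO, at 2.41 and 3.72 CPM. None of 10 passed 1.5-fold in CD4 T cells, where Gbp6 came nearest (48.5 CPM in ALLO, 32.6 in SYN, ratio 1.49) and Ifi47 was 1.32-fold lower. In CD8 T cells 0 of 10 were higher and 2 of 10 lower (Gbp10 with 6 ALLO and 15 SYN UMIs, and Tgtp1 with 15 and 23). In NK cells 0 of 7 were higher and 1 of 7 lower (Gvin1, 6 ALLO and 17 SYN UMIs). The medians were 0.03, -0.09 and -0.10 in CD4 T, CD8 T and NK cells.

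Ifng, the gene of interferon gamma itself, had 3.91 (2.83 to 5.47) times the SYN level in ALLO CD4 T cells, at 56.2 CPM against 14.4, and 1 ALLO barcode gave 23 of its 146 UMIs. Its ratio in CD8 T cells was 1.61 (1.16 to 2.26), at 34.7 CPM in ALLO and 21.5 in SYN. The signalling genes downstream of it were closer to even: with Ifng counted, 1 of 11 was at least 1.5-fold higher and 1 of 11 lower in CD4 T cells, where Socs3, a feedback inhibitor of Jak kinases, was 1.69-fold lower (33.5 CPM in ALLO, 56.7 in SYN). In CD8 T cells 1 of 11 was higher and 1 of 11 lower; this was Irf8, a relative of Irf1, with 25 ALLO and 57 SYN UMIs, 21 of the SYN UMIs in 1 barcode. In NK cells 2 of 11 were higher (Ifngr2 with 15 ALLO and 11 SYN UMIs, and Jak2 at 61.6 CPM in ALLO and 40.5 in SYN) and 0 lower. In B cells none of 11 passed in either direction, the ratios nearest to it being 1.29 for Irf9 (58.7 CPM in ALLO, 45.4 in SYN) and a 1.29-fold lower Jak2 (50.2 and 64.6 CPM). The medians were 0.07, -0.03, -0.09 and 0.03 in CD4 T, CD8 T, NK and B cells.

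Of other interferon gamma targets, 2 of 8 were at least 1.5-fold higher in ALLO CD4 T cells: Cxcl10, a chemokine gene, with 35 ALLO and 9 SYN UMIs (5.41, 2.55 to 12.8; 8 of the 35 in 1 barcode), and Serpina3g, a serine protease inhibitor gene, at 25.4 and 10.2 CPM (2.48, 1.64 to 3.82). Serpina3g was also the single one in CD8 T cells (1 of 7, ratio 1.94) and in B cells (1 of 8, ratio 1.57), and 0 of 8 passed in NK cells. None was at least 1.5-fold lower in the 4 classes. The medians were 0.22, -0.09, -0.01 and 0.10 in CD4 T, CD8 T, NK and B cells.

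The type I interferon-induced genes had a higher median than the 9 genes in each of the 4 classes. At least 1.5-fold higher in ALLO were 7 of 14 in CD4 T cells, 2 of 13 in CD8 T cells, 2 of 6 in NK cells and 8 of 16 in B cells, and 1 of 13 was lower in CD8 T cells (Oasl2) and none in the other classes. Their medians were 0.54, 0.21, 0.18 and 0.57 in CD4 T, CD8 T, NK and B cells. Ifit3, an antiviral gene, led in each of CD4 T cells (20.01 CPM in ALLO, 3.04 in SYN, ratio 6.58), CD8 T cells (16.7 and 5.74 CPM, 2.90) and B cells (11.7 and 4.93 CPM, 2.38). In ALLO CD4 T cells 1 barcode gave 13 of its 52 UMIs.

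**Figure D4:**
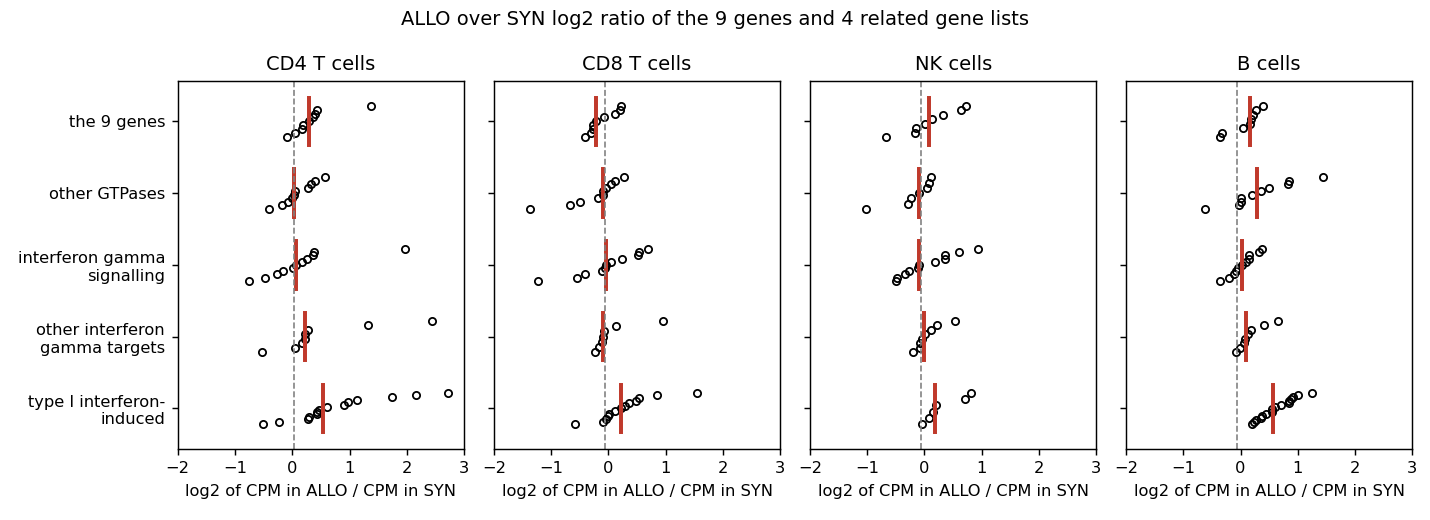
Log2 ratio of CPM in ALLO over CPM in SYN (x axis) of single genes with at least 20 UMIs (circles) in the 9 genes and 4 related lists (rows), by cell class (panels); red bars are list medians and the dashed line is the median of all genes of the class. The type I interferon-induced genes lie farthest to the right in CD4 T and B cells (medians 0.54 and 0.57), with the 9 genes at 0.28 and 0.17.

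CD4 T cells were then split by marker UMIs, a split made after the values had been seen. Barcodes with a UMI of Foxp3, the regulatory T cell factor, numbered 45 in ALLO (7.85% of CD4 T cells) and 49 in SYN (5.65%). Those without it but with a UMI of Cxcr3, Ccl5 or Ifng, genes of interferon gamma-producing helper cells, numbered 126 (22.0%) and 114 (13.1%). The remaining 402 ALLO and 705 SYN barcodes held none of these.

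Most members had higher values in Foxp3 cells than in cells with none of the markers. In SYN, without 1 barcode, the count past 1.5-fold was near the share of all genes. Against the cells with none of the markers, 9 of 9 members were at least 1.5-fold higher in Foxp3 cells of ALLO (24.6% of all genes) and 4 of 8 in those of SYN (23.5%), and none was lower (16.8 and 19.7%). The intervals of these ratios lay above 1 for 9 of 9 in ALLO and 3 of 8 in SYN. No like count of intervals was made over all genes, so these counts are not read as particular to the members. Single barcodes weighed on the counts: 1 gave 10 of the 21 Gbp2 UMIs of ALLO Foxp3 cells and 1 gave 8 of the 29 Igtp UMIs. Without the Foxp3 barcode richest in the members' UMIs, 8 of 9 were higher in ALLO (24.8%) and 2 of 8 in SYN (23.3%). None was lower (17.3 and 19.8%). The ALLO ratios of Gbp2 (1.63, 0.766 to 3.18) and Igtp (1.4997, 0.952 to 2.28) then had intervals that held 1. So did the SYN ratios of Gbp7 (1.43, 0.794 to 2.39) and Iigp1 (2.26, 0.777 to 5.43). In cells with Cxcr3, Ccl5 or Ifng 6 of 9 were higher in ALLO (19.7%) and 2 of 8 in SYN (20.2%), and none was lower (9.24 and 10.5%). The members' median log2 ratio in Foxp3 cells was 1.16 in ALLO and 0.67 in SYN, against 0.16 and 0.11 over all genes. Without the richest barcode the members' median was 1.04 in ALLO and 0.43 in SYN. The 8 SYN members counted leave out Gbp3, which was under the minimum of 20 UMIs there. Gbp3 was at 72.4 CPM in Foxp3 cells and 5.68 in cells with none in ALLO (18 and 10 UMIs; 12.7, 5.57 to 30.9), and at 44.1 and 3.10 CPM in SYN (10 and 9 UMIs; 14.3, 5.21 to 39.7). Gbp5 was at 60.3 and 10.2 CPM in ALLO (5.90, 2.77 to 12.4) and 48.5 and 13.4 CPM in SYN (3.62, 1.67 to 7.20). Gbp3 and Gbp5, which were below the B cell level in CD4 T cells as a whole, were above it in Foxp3 cells, with intervals of 42.9 to 114 and 33.7 to 99.5 CPM in ALLO against 24.3 and 29.2 in B cells. In SYN the intervals of 21.2 to 81.2 and 24.2 to 86.9 CPM held the B cell levels of 31.2 and 28.4.

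Iigp1 was at 60.3 CPM in Foxp3 cells and 10.8 in cells with none of the markers in ALLO (5.58, 2.64 to 11.6), and at 35.3 and 12.0 CPM in SYN (2.93, 1.18 to 6.43). The SYN Foxp3 cells held 8 UMIs of Iigp1 in 4 barcodes, and without the richest barcode the interval of this ratio held 1. Irf1 was at 289 and 161 CPM in ALLO (1.80, 1.37 to 2.34) and at 243 and 182 CPM in SYN (1.34, 0.993 to 1.77). In cells with Cxcr3, Ccl5 or Ifng, Gbp7 was at 91.4 CPM against 40.3 in cells with none in ALLO (2.27, 1.56 to 3.27), and at 57.7 against 50.9 CPM in SYN (1.13, 0.729 to 1.71). In the same cells neither Igtp nor Irf1 was above the cells with none, with ratios of 0.955 in ALLO and 0.790 in SYN for Igtp, and 0.979 in ALLO and 0.976 in SYN for Irf1.

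Comparisons between the libraries rested on few UMIs in the Foxp3 cells, from 8 to 72 per member and library. Gbp3 had an ALLO over SYN ratio of 1.64 (0.718 to 3.98) in Foxp3 cells, 3.08 (0.981 to 12.7) in cells with Cxcr3, Ccl5 or Ifng, and 1.84 (0.670 to 5.11) in cells with none, all above 1 and all with intervals that held 1. Irgm1 had 96.5 CPM in ALLO and 44.1 CPM in SYN Foxp3 cells (2.19, 1.01 to 5.12), and Gbp5 32.2 and 10.3 CPM in cells with Cxcr3, Ccl5 or Ifng (3.12, 1.13 to 10.7). In the cells with none of the markers the members' median log2 ratio was -0.14, and none of the 8 with at least 20 UMIs was 1.5-fold apart. Gbp3 was under that minimum, with 10 ALLO and 9 SYN UMIs. The share and the median of all genes were not computed for these cells, so no likeness of the libraries is read from these values. The share of CD4 T cells in the marked subsets was higher in ALLO, as given above; its part in the CD4 T cell ratios was not tested.

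**Figure D5:**
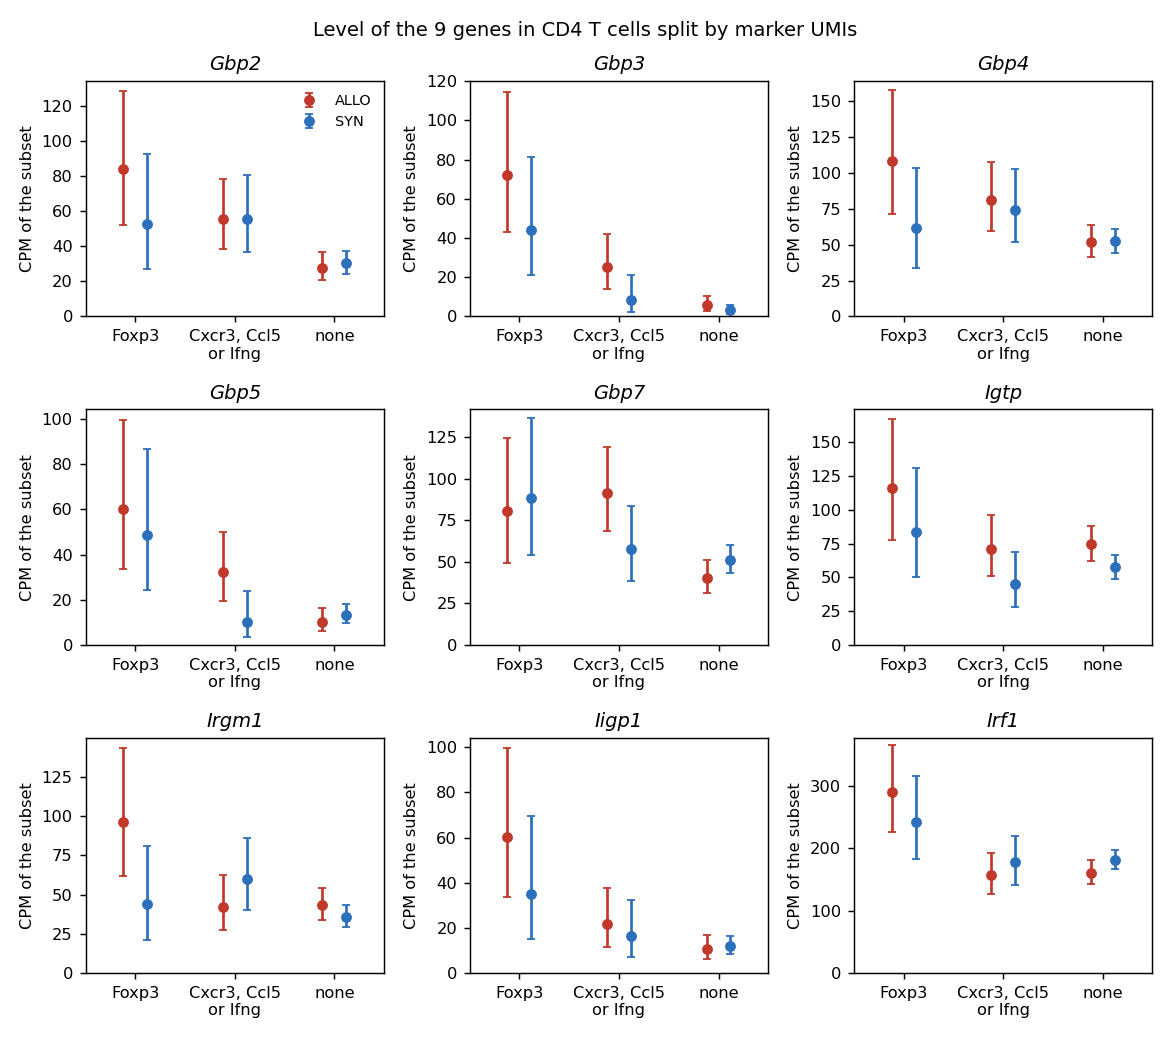
CPM of each of the 9 genes (y axis, 1 panel per gene, each from 0) in CD4 T cells with a Foxp3 UMI, with a Cxcr3, Ccl5 or Ifng UMI and with none of these (x axis), in ALLO (red, left) and SYN (blue, right); bars are exact Poisson intervals for counting error. Gbp3 has the highest ratios, at 72.4 CPM in ALLO and 44.1 in SYN Foxp3 cells against 5.68 and 3.10 in cells with none. The SYN pair held under 20 UMIs of Gbp3.

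Across the 8 sums of 4 classes in 2 libraries, the genes whose log2(CPM + 1) followed the mean of the members most closely (out of 9825 genes with at least 100 UMIs) were Ikzf2 (Pearson r 0.987), Ldlrad4 (0.987), Icos (0.984), Syt11 (0.977) and Slc29a1 (0.975). Ikzf2 encodes the transcription factor Helios and Icos a T cell costimulatory receptor. Each of the 5 was highest in ALLO CD4 T cells: Icos had 78.9 CPM in ALLO and 56.4 CPM in SYN CD4 T cells, and 0.505 and 0.605 CPM in B cells. The 8 points come from 2 libraries and share their depth by class, and the coefficients are given as a description only.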

How the data were processed

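Per the labels' protocols, frozen splenocytes were thawed and made into 10x 5' libraries. Per the submitters' processing notes, reads were checked with FastQC and counted with Cell Ranger 6.0.2 on mm10; the sources used here do not give the annotation release or whether intronic reads were counted. The deposited files hold unnormalised UMI counts per gene and barcode. Barcodes with at least 1000 UMIs, 200 genes and at most 10% mitochondrial UMIs were kept (135 ALLO and 70 SYN barcodes failed on the mitochondrial share). Median UMIs per class were 2972 to 4960.

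Classes came from marker UMIs by rule: B cells (at least 2 UMIs of Cd79a and Cd79b, no Cd3 UMI), CD4 T cells (Cd3 and Cd4, no Cd8a, Cd8b1 or Cd79a), CD8 T cells (Cd3 and Cd8b1, no Cd4 or Cd79a) and NK cells (Ncr1 or Klrb1c, no Cd3). No doublet caller was run; the T cell rules drop barcodes with Cd79a but not with Cd79b, which 42 ALLO and 51 SYN CD4 T and 81 and 74 CD8 T barcodes held. UMIs were summed per class and library. Counts past 1.5-fold use genes with at least 20 UMIs over both sums, and that fold describes size and is no test. Intervals (95%) are exact Poisson for levels, exact conditional for ratios and Clopper-Pearson for shares; a share of 0 is bounded by 3 counts. Thinning drew 1000 UMIs per cell (every classed cell had that many). Related genes are named in each list by size of ratio, at most 4 a list and class, and likeness covered genes other than immunoglobulin, T cell receptor, ribosomal, mitochondrial and predicted ones. The members and lists were chosen with earlier results of these data known. Alternatives changed the depth, mitochondrial and count filters, class rules, scaling, fold and cells left out. The ratio intervals and fold calls were tested on class sums simulated as Poisson counts with known ratios. That test does not cover the class rules, the summing or uneven counts among cells. Python 3.11.15, numpy 2.4.6, scipy 1.17.1, pandas 2.3.3 and matplotlib 3.10.9 were used.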

Additional observations from a re-analysis of the deposited data

Results flagged for a closer look

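Gbp3 differed between the libraries in opposite directions in CD4 T and B cells: its ALLO level was 2.60 times the SYN level in CD4 T cells and 0.777 times the SYN level in B cells. The log2 ratio in CD4 T cells minus that in B cells was 1.74, and the difference was not tested.

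Irf1 also went opposite ways, with a ratio of 1.31 in B cells and 0.860 in CD8 T cells. The log2 ratio in B cells minus that in CD8 T cells was 0.61, and the difference was not tested.

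Iigp1 had 85 UMIs in 60 of 1564 ALLO barcodes that met no class rule and 59 UMIs in 49 of 2744 such SYN barcodes, or 12.8 and 5.62 CPM. The ratio was 2.27 (1.61 to 3.22), the highest of the 9 genes in these barcodes. It was 2.17 (1.37 to 3.49) in those with a Cd3 UMI and no Cd79a UMI (19.7 CPM in ALLO, 9.05 in SYN) and 2.28 (1.34 to 3.92) in the others (8.64 and 3.80 CPM). These barcodes are outside the comparisons above, and the difference was not tested.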

How the results depend on the processing

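No paired analysis was possible because each group has 1 library, and no replicate could be left out. Of 199 recomputed summary values 183 stayed close to those reported and 16 moved, and of 442 values for single genes 431 stayed close and 11 moved. For a single gene close means within the counting interval of the reported value, and for a count within 1.5 times. For a median it means between the medians of the members' lower and upper interval ends. Counts reported as 0 cannot change at 2-fold or with a minimum of 50 UMIs, and they are among the values that stayed close. The sign of the log2 ratio changed in 26 of the 442, spread over 15 of 34 pairs of gene and class, and in 5 of 61 medians; 0 of these were for ratios reported as at least 1.5-fold. Rescaling moved the median of all genes by at most 0.07 (log2). With 25% in place of 1.5-fold, the B cell counts were 1 higher (Irf1) and 2 lower (Gbp2 and Gbp3), 4 were higher in CD4 T cells and 1 lower in CD8 T cells. Shares of all genes were not recomputed for this or the other alternatives, so these counts cannot be set against them. With cells thinned to 1000 UMIs, 0 were higher in CD4 T cells, where Gbp3 then had under 20 UMIs, and 2 were lower in CD8 T cells. These 2 were Gbp2 and Irf1, whose lowest log2 ratios over the settings were -0.89 and -0.72, against -0.40 and -0.22 as reported. In the thinned NK cells 0 were higher, and the NK median was -0.47 over 3 members. Without CD4 T cells that held Foxp3, Cxcr3, Ccl5 or Ifng, 0 were higher in CD4 T cells, Gbp3 again being under 20 UMIs, and the members' median there was -0.14. The NK counts were the least stable: 1 was higher without the top 2% of barcodes by UMIs, under stricter class rules and without interferon cells, and 0 were higher at 2-fold. In NK cells 2 were lower with no minimum of UMIs, and 0 were lower with a minimum of 50 UMIs or at 2-fold. Why these values moved was not tested, apart from members that fell under the minimum. The median kept its sign in B cells (0.04 to 0.24) and in CD8 T cells (-0.37 to -0.01) under all 15 settings each, and took the other sign under 1 of 16 in CD4 T cells and 4 of 15 in NK cells. Gbp3 in CD4 T cells stayed between 1.28 and 1.53 in the 12 settings that gave a value, and Irf1 in B cells between 0.35 and 0.46 in 13. Thinning and leaving out cells with Foxp3, Cxcr3, Ccl5 or Ifng gave no Gbp3 value under the minimum of 20 UMIs. In CD4 T cells with none of these markers the Gbp3 log2 ratio was 0.88, outside that range. It rested on 10 ALLO and 9 SYN UMIs (ratio 1.84, 0.670 to 5.11). NK cells had the fewest UMIs and set the widest intervals.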
